A study of Mus musculus with 6 samples.

Results

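The 35 genes described here are type I interferon stimulated genes, chosen by symbol from the 55349 genes of the table. All 35 were present once, and 34 passed a filter on low counts that left 13268 genes. They were measured by RNA sequencing in subcutaneous tumours of B16F10, a pigmented mouse melanoma line. There were 3 libraries from tumours of the Sqle knockdown derivative, labelled shSQLE (replicates 1, 2 and 5). Another 3 libraries came from tumours labelled shControl and given a wild-type genotype (replicates 1, 4 and 5). No treatment was given to either group. Sqle encodes squalene epoxidase of cholesterol synthesis, and the comparison asks how tumours expressed these genes when it was depleted. The sources used here do not state the host strain, its age, the promoter that drives the hairpin, the number of clones or whether each library is its own animal. A p-value below therefore reflects the spread among 6 libraries, which may be technical.

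Sqle, the targeted gene, held 70.4, 66.8 and 77.1 CPM in shSQLE replicates 1, 2 and 5, against 146, 151 and 148 CPM in shControl replicates 1, 4 and 5. The groups stood well apart (log2 fold change -1.05, SE 0.17), although edgeR's adjusted p over all genes was 0.9996. CPM are counts-per-million, scaled to library size and composition (TMM). Library totals ranged from 18790360 to 19142185 expected counts in shSQLE and from 16408622 to 18587880 in shControl. Melanocyte markers were abundant in every library, with 7 markers that summed to 13776 to 16985 CPM, here by library total alone, in shSQLE and 12269 to 15916 in shControl. Each tumour also holds host cells. In such bulk samples, fewer cells of a type and less RNA per cell cannot be told apart.

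Type I interferons are secreted proteins that cells release after sensing foreign or misplaced nucleic acid. They bind the receptor pair Ifnar1 and Ifnar2, the kinases Jak1 and Tyk2 are activated, and a complex that contains Irf9 then binds interferon-stimulated response elements in promoters. Its targets make proteins that bind viral RNA, degrade RNA, modify proteins with the ubiquitin-like Isg15, or raise the level of the sensors themselves. In tumours these genes can be active in the malignant cells as well as in infiltrating macrophages and lymphocytes, and interferon gamma induces many of them too.

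The response element was looked for in RefSeq promoter windows (build GRCm38.p6), which run from 250 bases before the gene start to 50 after it. The motif searched was GAAANNGAAA on either strand, and overlapping matches were each counted. Of the 35 genes, 26 had a window, and 12 of these 26 (46.2%) held the motif. Among all 27025 genes with a window the share was 3.99%, and among the 10131 tested genes with a window it was 3.69%. The windows of 7 genes are shown for the 200 bases before the start, because they include well-known targets of the complex and a neighbouring pair that are near copies. Capitals mark the motif, which reads as TTTC boxes where it lies on the other strand.
Isg15 (chr4:156200819-156201018, minus strand): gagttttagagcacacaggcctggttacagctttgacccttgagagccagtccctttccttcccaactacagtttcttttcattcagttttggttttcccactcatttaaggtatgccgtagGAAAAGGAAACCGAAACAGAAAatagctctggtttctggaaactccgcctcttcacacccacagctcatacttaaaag
Ifit1 (chr19:34640689-34640888, plus strand): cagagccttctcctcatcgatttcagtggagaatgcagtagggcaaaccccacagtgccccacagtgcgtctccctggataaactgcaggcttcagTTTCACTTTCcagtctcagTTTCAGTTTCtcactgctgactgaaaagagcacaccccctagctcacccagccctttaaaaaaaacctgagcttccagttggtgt
Ifit3 (chr19:34583329-34583528, plus strand): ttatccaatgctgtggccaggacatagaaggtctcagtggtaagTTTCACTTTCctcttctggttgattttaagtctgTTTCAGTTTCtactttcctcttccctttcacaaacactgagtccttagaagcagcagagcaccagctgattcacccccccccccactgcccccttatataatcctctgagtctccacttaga
Ifit3b (chr19:34607757-34607956, plus strand): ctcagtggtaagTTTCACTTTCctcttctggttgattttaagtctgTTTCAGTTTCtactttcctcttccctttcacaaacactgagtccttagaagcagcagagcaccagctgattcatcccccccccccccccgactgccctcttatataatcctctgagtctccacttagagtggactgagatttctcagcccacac
Rsad2 (chr12:26456453-26456652, minus strand): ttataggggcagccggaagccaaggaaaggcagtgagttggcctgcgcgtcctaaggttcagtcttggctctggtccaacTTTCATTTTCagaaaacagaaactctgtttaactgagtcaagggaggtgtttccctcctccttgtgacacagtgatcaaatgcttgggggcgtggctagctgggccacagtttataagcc
Bst2 (chr8:71537473-71537672, minus strand): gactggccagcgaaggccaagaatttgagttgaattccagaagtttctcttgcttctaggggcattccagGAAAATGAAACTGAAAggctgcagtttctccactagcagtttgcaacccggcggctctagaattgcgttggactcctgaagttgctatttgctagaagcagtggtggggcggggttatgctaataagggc
Irf7 (chr7:141266425-141266624, minus strand): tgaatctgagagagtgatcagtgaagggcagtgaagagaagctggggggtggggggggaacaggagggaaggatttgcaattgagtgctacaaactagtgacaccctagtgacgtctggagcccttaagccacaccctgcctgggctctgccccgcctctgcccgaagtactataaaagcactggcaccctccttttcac

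Isg15 carried 3 overlapping matches that together ran from 78 to 57 bases before the start. Ifit1 carried 2 separate matches, at 104 to 95 and 85 to 76 bases before it. The windows of Ifit3 and Ifit3b shared an identical run of 169 of 300 bases, and each held 2 matches. Bst2 had 2 overlapping matches, at 130 to 121 and 124 to 115 bases before the start, and Rsad2 had 1 match, at 120 to 111. The window of Irf7 held none, which says only that these letters are not in this stretch. The other genes with a match were Oas1a, Oas3, Ddx60, Ifih1, Trim21 and Eif2ak2, the last 3 with their matches after the start. A match is a description of sequence, and no binding was measured.

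The interferon stimulated genes were lower in shSQLE tumours as a group, and a large part of that difference lay in 1 shControl library. Without any filter on low counts, all 35 had a log2 fold change (shSQLE over shControl) below 0, with a median of -1.30. The share of all genes below 0 in that fit was 55.7%. Among the 34 that passed the filter the fold changes ran from -2.99 to -0.17 with a median of -1.26, against a median of -0.02 over all tested genes, and 52.6% of those were below 0. In 26 of the 34 the log2 fold change was below -1, which held for 2.56% of all tested genes. By edgeR's quasi-likelihood test, 0% of the 13268 genes reached an adjusted p of 0.05 (Benjamini-Hochberg), 0 of the 34 among them, and 0 reached 0.1. The smallest adjusted p among the 34 was 0.9996. At an unadjusted p under 0.05, 24 of the 34 were lower and 0 higher, beside 1.62% of all tested genes that were lower. DESeq2 called 0.0452% of all genes, and of the interferon stimulated genes only Rtp4 (log2 fold change -2.65, adjusted p = 0.0495). It gave no adjusted p for 2 of the 34, nor for 21 of all tested genes. Limma voom called none, with 14 of the 34 lower at an unadjusted p under 0.05 beside 1.7% of all genes. Of the 34, 4 (Ifi44, Mx1, Mx2 and Oas3) reached the count cutoff in fewer than 3 shSQLE libraries. The median over the other 30 was -1.21.

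**Figure D1:**
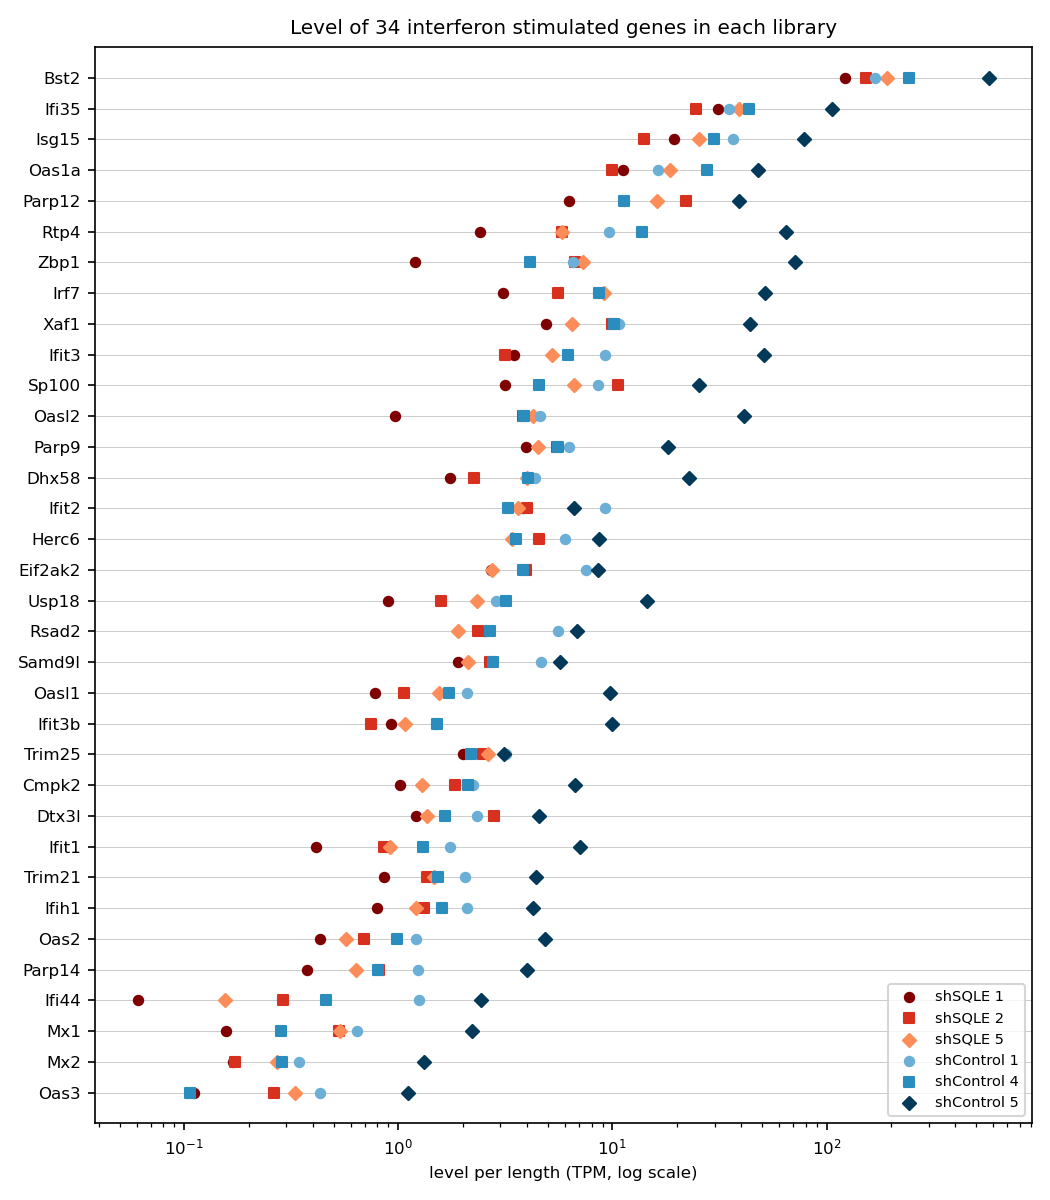
Level per length of the 34 tested interferon stimulated genes, ordered by mean level, in TPM on a log axis. Each marker is 1 library (red shades shSQLE, blue shades shControl). Bst2 is the most abundant gene, and the dark blue diamond of shControl replicate 5 lies at the right end for nearly all genes.

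Per length, the levels of these genes spanned a wide range. TPM are counts divided by effective length and scaled to the same total in each library. Bst2, which tethers budding virus to the cell surface, was the most abundant, at 122, 153 and 191 TPM in shSQLE replicates 1, 2 and 5, and 168, 242 and 576 TPM in shControl replicates 1, 4 and 5. Ifi35 followed with a mean over the 6 libraries of 46.5 TPM, then Isg15 with 33.95, Oas1a with 21.97 and Parp12 with 17.7 TPM. The median of the 35 gene means was 4.23 TPM. The lowest was 0.254 TPM for Ddx60, a helicase that helps RNA sensors. Ddx60 was the member that did not pass the filter, with 3, 4 and 7 counts in shSQLE replicates 1, 2 and 5 and 13, 7 and 39 counts in shControl replicates 1, 4 and 5. These values show that most of the list sat at low levels in these tumours, with few counts behind the rarest genes.

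The libraries differed on average over the list. The mean log2 CPM over the 34 genes was 2.04, 2.36 and 2.71 in shSQLE replicates 1, 2 and 5, against 2.94, 2.90 and 4.73 in shControl replicates 1, 4 and 5. Group means were 2.37 ± 0.34 log2 CPM in shSQLE and 3.52 ± 1.05 log2 CPM in shControl (SD, n = 3 each). Each shSQLE library thus lay below each shControl library, but the step between shSQLE replicate 5 and shControl replicate 4 was small beside the height of shControl replicate 5. That library held the highest level for 33 of the 34 genes (97.1%), whereas it was highest for 13.0% of all tested genes. The exception was Ifit2, highest in shControl replicate 1. The lowest level was in shSQLE replicate 1 for 20 genes, in shSQLE replicate 2 for 11, in shSQLE replicate 5 for 2 and in shControl replicate 4 for 1, Oas3. In shControl replicate 5, 28 of the 34 genes stood at over 2 times the mean of shControl replicates 1 and 4, beside 4.13% of all tested genes.

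Leaving out shControl replicate 5 lowered the differences without turning most of them. In that fit, with 3 shSQLE and 2 shControl libraries, the median log2 fold change of the 34 genes was -0.55, against -1.26 with all 6 libraries. Of the 34, 32 remained below 0, beside 53.2% of all tested genes. Sp100 and Parp12 changed sign, to 0.11 (SE 0.44) and 0.40 (SE 0.41). A log2 fold change below -1 was left for Ifi44 and Rtp4, 2 of 34, beside 2.2% of all tested genes. Ifi44 reached the count cutoff of the 6-library filter in 0 shSQLE and 3 shControl libraries. A difference was thus built into its place here and in the count that follows. At an unadjusted p under 0.05, 4 of 34 were lower (Ifi44, Eif2ak2, Samd9l and Rtp4), beside 1.31% of all tested genes, and edgeR again called 0% at an adjusted p of 0.05. The count at an unadjusted p under 0.05 also dropped without shSQLE replicate 1, to 10 of 35 beside 3.29% of all genes, and without shSQLE replicate 2, to 9 of 35 beside 0.898%. The medians in those fits were -1.26 and -1.37. The count was 21 of 35 without shSQLE replicate 5 beside 1.48%, 26 of 34 without shControl replicate 1 beside 1.28%, and 28 of 35 without shControl replicate 4 beside 3.03%.

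**Figure D2:**
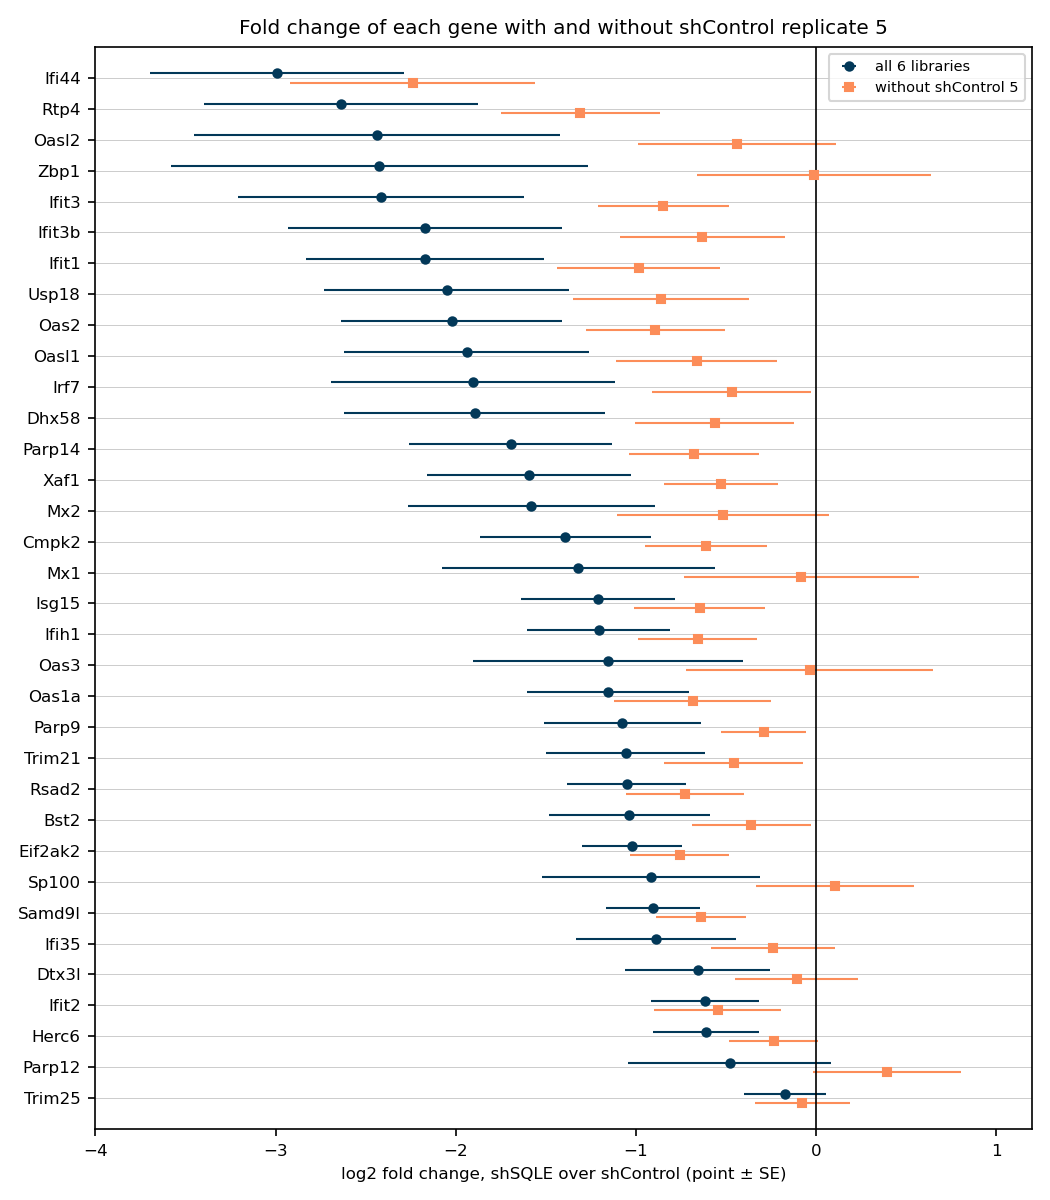
Log2 fold change of shSQLE over shControl for the 34 tested genes, as points with bars of 1 standard error, for all 6 libraries (dark circles) and without shControl replicate 5 (orange squares). All dark points lie below 0, the orange points lie closer to 0, and those of Sp100 and Parp12 lie above it.

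For 17 of the 34 genes every shSQLE library lay below every shControl library, beside 3.35% of all tested genes, and the count was also 17 without shControl replicate 5, beside 9.69%. With fewer libraries the share of all genes without overlap is larger. Apart from changes in scaling and filter, leaving out a library can only keep or raise such a count. As shControl replicate 5 was not the lowest control for any of the 34 genes, the count without it could not fall. The count was 18 of 35 without shSQLE replicate 1 beside 10.9%, 19 of 35 without shSQLE replicate 2 beside 6.85%, and 26 of 35 without shSQLE replicate 5 beside 5.93%. It was 23 of 34 without shControl replicate 1 beside 6.7%, and 21 of 35 without shControl replicate 4 beside 8.29%. In TPM, with no correction for composition, the count was 18 beside 4.61%, and 15 genes were in both counts. This scale was added after seeing the data. The 15 genes were Cmpk2, Ifi44, Ifih1, Ifit1, Ifit3, Ifit3b, Isg15, Oas2, Oasl1, Parp9, Rsad2, Rtp4, Samd9l, Trim21 and Xaf1.

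Isg15, some of its enzymes and several ubiquitin ligases formed a group of 6 tested genes, Isg15, Usp18, Herc6, Trim21, Trim25 and Dtx3l. All 6 were lower in shSQLE, beside 52.6% of all tested genes, and 3 of them at an unadjusted p under 0.05, beside 1.62%. The group does not hold every enzyme of Isg15 conjugation. Uba7 and Ube2l6, tested outside the list, overlapped between groups, at -0.25 (SE 0.43) and -0.28 (SE 0.45). Without shControl replicate 5 they stood at 0.39 (SE 0.35) and 0.41 (SE 0.34). Isg15, the ubiquitin-like modifier itself, held 9.86, 5.43 and 12.3 CPM in shSQLE replicates 1, 2 and 5, against 14.0, 14.8 and 34.95 CPM in shControl replicates 1, 4 and 5. The groups did not overlap, and its log2 fold change was -1.21 (SE 0.43), or -0.64 (SE 0.36) without shControl replicate 5. Usp18, the protease that removes Isg15 and also damps the interferon receptor, held 1.35, 1.83 and 3.37 CPM in shSQLE replicates 1, 2 and 5, against 3.27, 4.66 and 19.2 CPM in shControl replicates 1, 4 and 5. In CPM shSQLE replicate 5 lay just above shControl replicate 1, while in TPM the groups did not overlap, with a log2 fold change of -2.05 (SE 0.68). Trim21, a ubiquitin ligase that binds antibody in the cytosol, stood at -1.06 (SE 0.44). Herc6, the main Isg15 ligase of the mouse, was at -0.61 (SE 0.29), and its counts were not whole in 2 libraries, so some reads may be shared with other genes. Trim25, a ubiquitin ligase that acts on the RNA sensor RIG-I, had the smallest log2 fold change of the list with all 6 libraries. It held 11.4, 10.7 and 14.3 CPM in shSQLE replicates 1, 2 and 5, and 13.7, 11.98 and 15.5 CPM in shControl replicates 1, 4 and 5, so its groups overlapped (-0.17, SE 0.23). Without shControl replicate 5 it stood at -0.08 (SE 0.26), where Zbp1 and Oas3 were closer to 0.

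The IFIT genes encode tetratricopeptide proteins that bind foreign RNA, and the 4 measured lie close together on chromosome 19 of the mouse. Ifit1 held 1.07, 1.67 and 2.26 CPM in shSQLE replicates 1, 2 and 5, against 3.38, 3.25 and 16.002 CPM in shControl replicates 1, 4 and 5. Ifit3 held 5.58, 3.86 and 8.05 CPM in shSQLE replicates 1, 2 and 5, against 11.2, 9.74 and 72.3 CPM in shControl replicates 1, 4 and 5. Both were lower in each shSQLE library, by a log2 fold change of -2.17 (SE 0.66) for Ifit1 and -2.41 (SE 0.79) for Ifit3. Without shControl replicate 5 these were -0.98 (SE 0.45) and -0.85 (SE 0.37). Ifit3b, the near copy of Ifit3, had -2.17 (SE 0.76), and although counts of both were whole, reads may be divided between them. Ifit2 went another way among the controls, with 14.4, 11.4 and 13.0 CPM in shSQLE replicates 1, 2 and 5, and 25.9, 11.7 and 21.7 CPM in shControl replicates 1, 4 and 5. Its groups overlapped (-0.62, SE 0.30), and shControl replicate 5 stood at 1.15 times the mean of the other 2 controls, where Ifit3 stood at 6.90 times.

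Oligoadenylate synthetases make the messenger that activates RNase L. All 5 genes of the family on the list, which include the OAS-like Oasl1 and Oasl2, were lower in shSQLE, beside 52.6% of all tested genes. At an unadjusted p under 0.05, 4 of the 5 were lower, beside 1.62%. Oas1b, Oas1c and Oas1g, tested outside the list, overlapped between groups. They stood at -1.03 (SE 0.55), -0.34 (SE 0.42) and -1.15 (SE 0.46). Without shControl replicate 5 they stood at -0.52 (SE 0.58), -0.04 (SE 0.48) and -0.74 (SE 0.47). Oas2 held 1.58, 1.93 and 1.99 CPM in shSQLE replicates 1, 2 and 5, against 3.32, 3.48 and 15.6 CPM in shControl replicates 1, 4 and 5. The shSQLE libraries were close to each other and below all controls, and the log2 fold change was -2.02 (SE 0.61), or -0.89 (SE 0.39) without shControl replicate 5. Oas1a, the most abundant of the 5 per length, held 19.8, 13.3 and 31.2 CPM in shSQLE replicates 1, 2 and 5, against 21.7, 47.2 and 74.0 CPM in shControl replicates 1, 4 and 5. Its groups overlapped, at -1.15 (SE 0.45). The OAS-like genes carry ubiquitin-like domains. Oasl2 held 1.75, 5.28 and 7.39 CPM in shSQLE replicates 1, 2 and 5, and 6.26, 6.79 and 65.1 CPM in shControl replicates 1, 4 and 5. It spread widely in both groups, with shSQLE replicate 5 above 2 of the controls (-2.44, SE 1.02, or -0.44, SE 0.55, without shControl replicate 5). Oasl1, which in the mouse restrains translation of Irf7, stood at -1.94 (SE 0.68) with no overlap. Oas3 was rare, with 9 to 26 counts in shSQLE and 8 to 81 in shControl, and overlapped (-1.15, SE 0.75).

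The Mx GTPases, which trap viral nucleocapsids, had few counts behind them. Mx1 had 6, 17 and 20 counts in shSQLE replicates 1, 2 and 5, and 19, 10 and 76 counts in shControl replicates 1, 4 and 5. Mx2 had 7, 6 and 11 counts in shSQLE replicates 1, 2 and 5, and 11, 11 and 49 counts in shControl replicates 1, 4 and 5. Mx1 overlapped between groups, and Mx2 did so in CPM but not in TPM. Without shControl replicate 5 the log2 fold changes were -0.08 (SE 0.65) for Mx1 and -0.52 (SE 0.59) for Mx2.

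Among the sensors of nucleic acid, Eif2ak2 and Zbp1 showed contrasting patterns. Eif2ak2, the kinase PKR that halts translation on double-stranded RNA, held 10.8, 12.03 and 10.4 CPM in shSQLE replicates 1, 2 and 5, against 22.7, 14.8 and 30.1 CPM in shControl replicates 1, 4 and 5. Its shSQLE libraries were nearly level, its groups did not overlap in CPM, and the log2 fold change was -1.02 (SE 0.28) with all libraries and -0.76 (SE 0.27) without shControl replicate 5. Zbp1, a sensor of Z-form nucleic acid that can start necroptosis, held 1.18, 5.02 and 6.90 CPM in shSQLE replicates 1, 2 and 5, and 4.85, 3.95 and 61.6 CPM in shControl replicates 1, 4 and 5. The large difference of Zbp1 (-2.42, SE 1.16) lay in shControl replicate 5, and without it the log2 fold change was -0.01 (SE 0.65). Ifih1, the RNA sensor MDA5, held 3.38, 4.26 and 4.91 CPM in shSQLE replicates 1, 2 and 5, against 6.64, 6.55 and 15.8 CPM in shControl replicates 1, 4 and 5. It did not overlap (-1.21, SE 0.40, or -0.66, SE 0.33, without shControl replicate 5). Dhx58, the related regulator LGP2, stood at -1.90 (SE 0.73), with overlap in CPM but not in TPM.

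The interferon-induced ADP-ribosyltransferases differed among themselves. Parp14, which modifies proteins with single ADP-ribose units, held 2.87, 4.72 and 4.63 CPM in shSQLE replicates 1, 2 and 5, against 7.08, 5.96 and 26.6 CPM in shControl replicates 1, 4 and 5 (-1.70, SE 0.56). Parp12 held 19.8, 52.7 and 48.8 CPM in shSQLE replicates 1, 2 and 5, and 26.9, 34.7 and 107 CPM in shControl replicates 1, 4 and 5. So Parp14 kept the groups apart in CPM, whereas 2 of the 3 shSQLE libraries exceeded 2 of the 3 controls for Parp12 (-0.48, SE 0.56). Parp9 and its partner ligase Dtx3l are neighbours on chromosome 16, and their counts were not whole in the same 3 libraries, where the pair summed to 469, 362 and 432. Reads of the pair may thus have been divided between them. Parp9 was at -1.08 (SE 0.44) and Dtx3l at -0.66 (SE 0.40).

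Irf7, the transcription factor that amplifies interferon production, held 5.69, 7.76 and 16.1 CPM in shSQLE replicates 1, 2 and 5, against 11.9, 15.3 and 83.0 CPM in shControl replicates 1, 4 and 5. Replicate 5 of shSQLE lay above 2 of the controls, and the log2 fold change of -1.90 (SE 0.79) was -0.47 (SE 0.44) without shControl replicate 5.

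The remaining antiviral effectors were lower for all 9 genes, and for 8 of 9 without shControl replicate 5. At an unadjusted p under 0.05, 7 were lower, beside 1.62% of all tested genes, and 6 did not overlap, beside 3.35%. Ifi44 had the smallest p of the list (0.0023), with 2, 8 and 5 counts in shSQLE replicates 1, 2 and 5, against 32, 14 and 72 counts in shControl replicates 1, 4 and 5. It passed the filter through the control libraries, so a difference was built into its selection, and the log2 fold change was -2.99 (SE 0.71), or -2.24 (SE 0.68) without shControl replicate 5. Rtp4, a receptor transporter that also acts against RNA viruses, held 2.42, 4.42 and 5.57 CPM in shSQLE replicates 1, 2 and 5, against 7.24, 13.3 and 56.9 CPM in shControl replicates 1, 4 and 5. Each shSQLE library was below each control, at -2.64 (SE 0.76), or -1.31 (SE 0.44) without shControl replicate 5. Samd9l, which restrains translation and growth, held 10.3, 11.0 and 11.0 CPM in shSQLE replicates 1, 2 and 5, against 18.9, 14.5 and 26.9 CPM in shControl replicates 1, 4 and 5. Like Eif2ak2 it was nearly level in shSQLE (-0.90, SE 0.26, or -0.64, SE 0.25, without shControl replicate 5).

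Rsad2 and Cmpk2 lie side by side on chromosome 12. Rsad2, the enzyme viperin that makes a chain-terminating nucleotide, held 9.63, 6.75 and 6.84 CPM in shSQLE replicates 1, 2 and 5, against 15.8, 9.80 and 22.4 CPM in shControl replicates 1, 4 and 5. Cmpk2, a nucleotide kinase of mitochondria, held 3.21, 4.42 and 3.92 CPM in shSQLE replicates 1, 2 and 5, against 5.28, 6.49 and 18.5 CPM in shControl replicates 1, 4 and 5. Neither gene overlapped between groups, at -1.05 (SE 0.33) and -1.39 (SE 0.47), or -0.73 (SE 0.33) and -0.61 (SE 0.34) without shControl replicate 5. Xaf1, an antagonist of inhibitors of apoptosis, held 4.90, 7.56 and 6.23 CPM in shSQLE replicates 1, 2 and 5, against 8.06, 9.91 and 38.6 CPM in shControl replicates 1, 4 and 5. It did not overlap either (-1.59, SE 0.57, or -0.53, SE 0.32, without shControl replicate 5).

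The 2 most abundant genes per length, Bst2 and Ifi35, both overlapped. Bst2 held 73.9, 70.3 and 110 CPM in shSQLE replicates 1, 2 and 5, and 76.2, 141 and 304 CPM in shControl replicates 1, 4 and 5 (-1.04, SE 0.45, or -0.36, SE 0.33, without shControl replicate 5). Ifi35, which binds the transcription regulator Nmi, held 36.4, 21.9 and 43.9 CPM in shSQLE replicates 1, 2 and 5, and 30.9, 49.5 and 109 CPM in shControl replicates 1, 4 and 5 (-0.89, SE 0.44, or -0.24, SE 0.35). Sp100, a component of nuclear bodies, held 4.17, 10.7 and 8.39 CPM in shSQLE replicates 1, 2 and 5, and 8.55, 5.84 and 29.5 CPM in shControl replicates 1, 4 and 5, and its groups overlapped (-0.92, SE 0.61).

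The genes thus departed from shControl replicates 1 and 4 in 2 ways, whose sizes differed from gene to gene. Against the mean of those 2 libraries, shControl replicate 5 stood at 1.15 times (Ifit2) to 14.0 times (Zbp1), with a median of 3.79, where the median over all tested genes was 0.955. The mean of the shSQLE libraries was 20.6% of the same controls for Ifi44, 40.3% for Rtp4, 50.4% for Ifit1 and 53.8% for Oas2. In these genes both departures were large, as shControl replicate 5 stood at 3.06, 5.54, 4.83 and 4.58 times those controls. The shSQLE mean was 59.2% for Eif2ak2 and 60.4% for Rsad2, for which shControl replicate 5 stood at 1.61 and 1.75 times the same controls. For Zbp1, highest of all in shControl replicate 5, it was 99.3%, for Sp100 108% and for Parp12 131%. These are ratios of CPM with no test, and both share the mean of the same 2 libraries, so they are not independent.

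**Figure D3:**
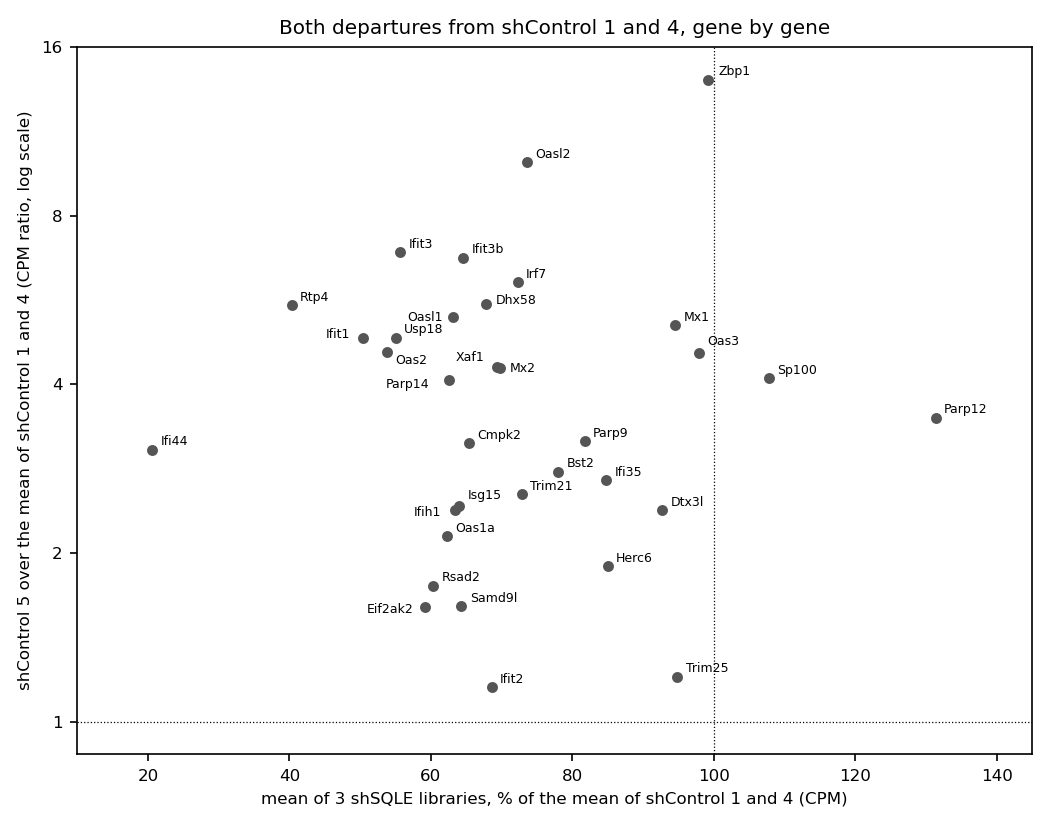
Each point is 1 of the 34 tested genes. The horizontal axis gives the mean of the 3 shSQLE libraries as a percentage of the mean of shControl replicates 1 and 4, and the vertical log axis gives shControl replicate 5 over that same mean (CPM ratios). Ifi44 and Rtp4 lie far to the left, Zbp1 lies at the top near 100%, and Eif2ak2, Samd9l, Rsad2 and Ifit2 lie low and left of 100%.

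Transcripts of the interferons themselves were at or near 0. Of 21 ligand genes, 18 had 0 counts in all 6 libraries, where 3 counts, the limit that a count of 0 allows, correspond to 0.157 to 0.16 CPM by library total in shSQLE and 0.161 to 0.183 in shControl. Such limits cover counting error only. Ifnb1, the early type I interferon, had 1 count in shSQLE replicate 2 and 0 elsewhere. Ifng, the interferon of lymphocytes, had 0, 2 and 0 counts in shSQLE replicates 1, 2 and 5, and 1, 0 and 12 counts in shControl replicates 1, 4 and 5. Ifnz had 2 or 3 counts in each library. None of these ligands passed the filter.

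The receptors and kinases differed little between the groups, and Irf9 was lower in each shSQLE library. Of 12 tested genes for receptors and JAK-STAT components, 7 were lower in shSQLE and 5 higher (median -0.09), and 1 was lower at an unadjusted p under 0.05. Of all tested genes, 52.6% were below 0 and 1.62% were lower at that p, shares that also apply to the lists that follow. Irf9, which brings the complex to DNA, held 9.13, 10.9 and 11.3 CPM in shSQLE replicates 1, 2 and 5, against 13.3, 21.5 and 42.0 CPM in shControl replicates 1, 4 and 5 (-1.30, SE 0.38, or -0.74, SE 0.29, without shControl replicate 5). Stat2, which carries the activating domain of that complex, held 8.73, 10.1 and 8.55 CPM in shSQLE replicates 1, 2 and 5, and 10.8, 8.50 and 21.1 CPM in shControl replicates 1, 4 and 5 (-0.56, SE 0.34). Irf9 thus kept the groups apart, whereas Stat2 overlapped and stood at -0.08 (SE 0.28) without shControl replicate 5.

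Of 18 tested genes of nucleic acid sensing upstream of interferon, 13 were lower and 5 higher in shSQLE (median -0.16, or 0.17 without shControl replicate 5). Ddx58, the RNA sensor RIG-I and itself interferon-induced, held 5.86, 10.5 and 9.93 CPM in shSQLE replicates 1, 2 and 5, against 12.6, 14.2 and 50.2 CPM in shControl replicates 1, 4 and 5 (-1.55, SE 0.53). Cgas, which senses cytosolic DNA, held 1.69, 1.78 and 1.82 CPM in shSQLE replicates 1, 2 and 5, against 4.03, 3.19 and 2.95 CPM in shControl replicates 1, 4 and 5. Neither overlapped, but Cgas was lowest among controls in replicate 5, and its log2 fold change was -0.94 (SE 0.33) with all libraries and -1.03 (SE 0.38) without that one. Of 9 negative regulators, 6 were lower and 3 higher with 0 at an unadjusted p under 0.05, led by Cish, an inhibitor of cytokine receptors, at -0.68 (SE 0.35) and the phosphatase Ptpn1 at 0.20 (SE 0.18). Cish held 4.06, 2.54 and 2.48 CPM in shSQLE replicates 1, 2 and 5 and 3.59, 5.37 and 5.63 CPM in shControl replicates 1, 4 and 5, with overlap. Ptpn1 held 56.7 to 72.0 CPM in shSQLE and 54.9 to 59.7 CPM in shControl, with overlap too.

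Other interferon-induced genes were mostly lower with all libraries and mixed without shControl replicate 5. Of 60 tested, 56 were lower and 4 higher (median -0.77), and 10 were lower at an unadjusted p under 0.05, beside 1.62% of all tested genes. Without shControl replicate 5, 34 of 60 were lower (median -0.11), a share near the 53.2% of all tested genes. The 2 with the smallest p were Trim30d and Trim30a. Trim30d held 0.282, 0.355 and 0.276 CPM in shSQLE replicates 1, 2 and 5, against 1.31, 0.590 and 2.46 CPM in shControl replicates 1, 4 and 5 (-2.23, SE 0.60). Trim30a, a regulator of Toll-like receptor signalling, held 2.93, 5.28 and 3.59 CPM in shSQLE replicates 1, 2 and 5, against 8.01, 6.49 and 18.6 CPM in shControl replicates 1, 4 and 5 (-1.49, SE 0.44). Neither overlapped, but every shSQLE library of Trim30d was under the filter's cutoff of 0.535 CPM. It passed through the control libraries, where it was high, so its place in the list follows in part from the filter. Their log2 fold changes without shControl replicate 5 were -1.62 (SE 0.61) and -0.88 (SE 0.37). Of 22 tested genes that respond mainly to interferon gamma, 21 were lower (median -1.69), and 13 of 22 were lower without shControl replicate 5 (median -0.15), again beside 53.2%. They were led by Serpina3g, a protease inhibitor, and Gbp6, a guanylate-binding protein, both with overlap. Serpina3g held 0.507, 0.913 and 1.60 CPM in shSQLE replicates 1, 2 and 5, and 2.56, 1.53 and 13.2 CPM in shControl replicates 1, 4 and 5 (-2.51, SE 0.82). Gbp6, whose counts were not whole in any library, held 1.01, 2.28 and 2.76 CPM in shSQLE replicates 1, 2 and 5, and 5.07, 2.30 and 32.1 CPM in shControl replicates 1, 4 and 5 (-2.70, SE 0.95). The difference between these lists and the 35 genes was not tested.

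The non-members whose log2 CPM followed the mean of the 34 genes most closely over the 6 libraries were Irf8, H2-T10, Ddx58, Ifi47 and Parp10. The measure was the root mean square difference after each gene was centred on its own mean, and it was 0.162, 0.177, 0.185, 0.224 and 0.258 log2 units for the 5 genes in that order. Among the 34 themselves it ran from 0.187 for Parp14 to 0.900 for Zbp1.

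**Figure D4:**
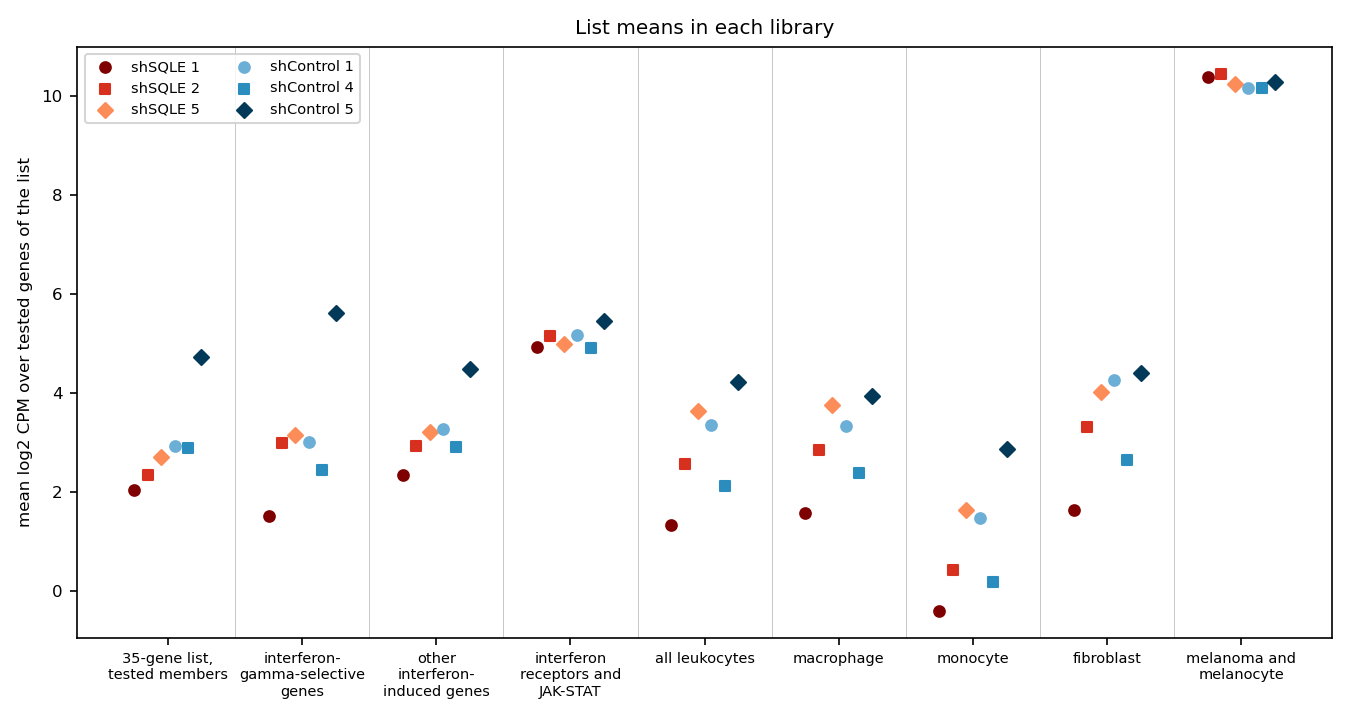
Mean log2 CPM over the tested genes of 9 lists in each library (red shades shSQLE, blue shades shControl). For the 3 lists of interferon-induced genes shControl replicate 5 stands apart at the top, while the leukocyte, macrophage and fibroblast lists spread widely within both groups.

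Leukocyte and macrophage list means were lowest in shSQLE replicate 1 and highest in shControl replicate 5, as for the interferon genes. The libraries between came in another order. The leukocyte mean was 1.34, 2.57 and 3.63 log2 CPM in shSQLE replicates 1, 2 and 5. In shControl replicates 1, 4 and 5 it was 3.35, 2.12 and 4.22. Of 4 markers of all leukocytes, 3 were highest in shControl replicate 5, and their summed level was 15.1 to 80.5 CPM by library total in shSQLE and 22.7 to 113 in shControl. Of 10 macrophage markers, 5 were highest there, with sums of 60.0 to 331 CPM by library total in shSQLE and 119 to 405 in shControl. No marker of these 2 lists was at 0 in any library. The macrophage list mean was 1.59, 2.85 and 3.76 log2 CPM in shSQLE replicates 1, 2 and 5, and 3.33, 2.38 and 3.95 in shControl replicates 1, 4 and 5. It was thus lowest in shSQLE replicate 1 and highest in shControl replicate 5, as the interferon genes were, but shSQLE replicate 5 lay above shControl replicates 1 and 4, where the interferon genes lay below them.

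All 4 monocyte markers were highest in shControl replicate 5, with sums of 2.82 to 13.9 CPM by library total in shSQLE and 5.85 to 34.9 in shControl. All 8 T cell markers were highest there too, with sums of 7.11 to 9.37 in shSQLE and 7.13 to 19.9 in shControl, and Cd3g, Cd8a and Cd8b1 were each at 0 in 1 library. The 6 markers of natural killer cells, all highest in shControl replicate 5, summed to 0.313 to 0.585 CPM by library total in shSQLE and 0.625 to 3.39 in shControl, and Gzma, Klrd1, Klrb1c and Ncr1 were at 0 in at least 1 library. For plasmacytoid dendritic cells, which make much type I interferon, 2 of 5 markers were highest in shControl replicate 5 and the sums were 3.76 to 20.6 in shSQLE and 3.66 to 4.68 in shControl. The highest shSQLE sum came from Cox6a2, a gene also made in muscle, and Siglech, Ccr9 and Klk1 had at most 5 counts in any library. Adipocyte markers were all highest in shControl replicate 5 as well, with sums of 10.4 to 20.9 CPM by library total in shSQLE and 11.8 to 124 in shControl, and Adipoq, Cidec, Plin1 and Lep were at 0 in at least 1 library. Of 7 markers of conventional dendritic cells, 6 were highest in shControl replicate 5, while none of 6 neutrophil, 6 endothelial or 5 muscle markers were. The same held for 2 of 6 fibroblast, 2 of 4 B cell and 3 of 5 keratinocyte markers. The fibroblast sum was highest in shControl replicate 1, at 579 CPM by library total. Muscle markers stood out in shSQLE replicate 5, with 1325 CPM by library total there and at most 125 in any other library. The part of these cells in the interferon differences was not tested.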

How the data were processed

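Libraries were made from total RNA of subcutaneous tumours and read as paired ends on a DNBSEQ-T7 instrument, per the labels' protocols. The authors deposited expected counts per gene, with a gene length and an effective length in bases (other values, 1 per gene). The submitters' processing notes name GRCm39, STAR, RSEM, FastQC and DESeq2, without versions. Whether counting used strand is not given in the sources used here. RSEM divides reads that match several genes, so 11.4% to 12.7% of each library's non-zero counts were not whole.

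Counts were rounded to whole numbers, filtered with filterByExpr (minimum count 10, minimum total 15), which left 99.88% to 99.93% of counts, and scaled by TMM (factors 0.928 to 1.12). The test was edgeR 4.0.16 in R 4.3.3 (robust glmQLFit, then glmQLFTest) over all 13268 genes with group as the only term and Benjamini-Hochberg adjustment at 0.05. Each SE came from the log2 fold change and its F statistic. List means used a prior count of 2. TPM came from the deposited effective lengths. The scripts were tested on simulated counts. Alternatives were other scalings, filters, DESeq2 1.42.0, limma 3.58.1 voom, a replicate block and each library left out. Named in full were the 12 genes with the smallest p and the 12 with the highest TPM, with the 2 of smallest p from each pathway list. Members, lists and rules were chosen with earlier results of these data known. Coordinates are of GRCm38.p6, not the build of the counts.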

Additional observations from a re-analysis of the deposited data

How the results depend on the processing

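The direction held in most fits, which reuse the same libraries and are not independent. Over 508 recomputed fold changes of single genes, 501 kept their direction and their side of the threshold, 5 passed it and 2 turned. As 0 interferon stimulated genes were past the threshold in the main analysis, keeping the side meant staying uncalled. A missing adjusted p from DESeq2 also counted as kept. The 2 that turned were Sp100 and Parp12, both without shControl replicate 5. That library was left out there with the main settings only. Without it, 3 of 34 genes lay above 0 with DESeq2 size factors, the DESeq2 test or limma voom, and 4 of 35 with no filter. With 1 library left out Sp100 ran from -1.29 to 0.11 and Parp12 from -0.81 to 0.40. The genes past an adjusted p of 0.05 numbered 0 in the main analysis, 6 with DESeq2, 41 with the replicate block and 0 to 31 with 1 library left out, the 31 without shSQLE replicate 1. Of the interferon stimulated genes, 0, 1 (Rtp4) and 4 passed in the main analysis, with DESeq2 and with the block, and 0 passed with any library left out or with an adjusted p of 0.1. The block rests on replicate numbers 1 and 5, the only ones that both groups share. Nothing in the labels pairs them, and same-numbered libraries had correlated deviations of -0.13 and 0.07. The 4 genes past the threshold with the block were Zbp1, Oasl2, Rtp4 and Ifi44. Lower at an unadjusted p under 0.05 were 24 of 34, 14 with limma voom and 4 to 28 with 1 library left out (0.898% to 3.29% of all tested genes). The count without overlap was 17 of 34, and 17 to 26 with 1 library left out (5.93% to 10.9% of all tested genes). Apart from scaling and filter, leaving out a library cannot lower that count, so this range is no check of it. The median log2 fold change was -1.26, and -1.62 to -0.55 with 1 library left out. With library size alone and without shControl replicate 5, the median of all genes moved to -0.12. Without shControl replicate 5 the median of the list lay between -0.66 and -0.52 over the scalings, filters and tests, and 0 interferon stimulated genes passed, where 172 of all genes did so with no filter, 2 with DESeq2 and 0 in the others. With a prior count of 0.5 the list means moved by less than the spread between replicates. The causes were not tested. With 3 libraries a group and few counts for Ifi44, Mx1, Mx2, Oas3 and Ddx60, small differences were not detectable.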
